A study of Mus musculus with 74 samples.

Results

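Stag2 was knocked down in HPC-7 cells, a mouse haematopoietic progenitor line, and the cells were then driven towards the red cell lineage with erythropoietin (EPO). The comparison rests on 4 RNA-seq libraries, 2 with an inducible short hairpin RNA against Stag2 (Ery shStag2) and 2 with one against luciferase (Ery Luc, the control), of 15 RNA-seq libraries and 74 samples in the series. All 4 had 72 h of doxycycline to induce the hairpin and then 48 h with EPO at 4 U/l and stem cell factor at 20 ng/ul. Progenitor libraries of the same line, HPC shStag2 and HPC Luc (3 each), had doxycycline for 72 h, stem cell factor at 100 ng/ul and no EPO, and served for the comparison of stages. HPC shRad21 (3 libraries) and HPC shSmc1a (2 libraries), with hairpins against other cohesin genes, had the same treatment. Their own changes are used in 1 comparison, and the libraries also enter every fit of all 15 libraries. All HPC titles, unlike the Ery titles, end in "(inhibitor)", a word whose meaning no label gives. The samples were chosen by their labels and not by any measured value. The labels do not say whether libraries of a group came from separate cultures or clones. The p-values thus speak only of library-to-library spread, and that may be technical. The fit shares its estimate of this spread across transcripts. The cell type label of the Ery libraries is still that of stem and progenitor cells.

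Cohesin is a ring-shaped protein complex that holds sister chromatids together and extrudes DNA loops, which bring enhancers and promoters near each other. Stag2 encodes one of its alternative SA subunits, the other common one in somatic cells being encoded by Stag1, and STAG2 is recurrently mutated in human myeloid malignancies. EPO acts through its receptor and JAK2-STAT5 signalling, and sustains survival and maturation of erythroid precursors. The series, by its title, concerns the part of cohesin in gene expression during differentiation and its loss in myeloid malignancy.

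Transcripts are given by Ensembl identifier, because 0 of the 55943 identifiers could be paired with a gene symbol through the tables used here. For this reason the fall of Stag2 itself could not be checked, the erythroid state of the cells could not be checked against marker genes, gene lists were not tested, and no sequence is shown. The 2 identifiers that rose most and the 2 that fell most, among those past the threshold with a mean of at least 2 CPM (read counts scaled to a common library size) in either group and no overlap between groups, are named. The others are described as groups. In bulk RNA, fewer cells of a type and less RNA per cell cannot be told apart.

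Assigned reads numbered 26537468 and 31297629 in Ery shStag2 and 32324027 and 27229662 in Ery Luc. The most counted identifier took 29.9% and 29.8% of them in Ery shStag2 and 30.9% and 31.3% in Ery Luc. Reads that overlapped more than 1 feature made up 26.9% in both Ery shStag2 libraries, against 26.7% and 26.5% in Ery Luc. Neither share overlapped between the groups. The part of the second in the results was not tested. Leaving the most counted identifier out of the table gave 3704 changed transcripts, against 3701 with it.

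The named transcripts formed 2 pairs, which differed in how they stood in progenitors. ENSMUST00000060050.5 had 4.56 and 4.78 CPM (120 and 149 reads) in Ery shStag2, against 0.0924 and 0.183 CPM (3 and 5 reads) in Ery Luc. Both knockdown libraries were far above both controls. The log2 fold change was 5.08 (SE 0.37, edgeR's quasi-likelihood test, Benjamini-Hochberg adjusted p = 5.5e-36). Because the control rests on 8 reads, the ratio of pooled levels is given with its exact 95% counting interval, 34.9 (17.5 to 81.8), which covers counting error only.

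ENSMUST00000112836.7 had 4.44 and 4.46 CPM (117 and 139 reads) in Ery shStag2, against 0.277 and 0.403 CPM (9 and 11 reads) in Ery Luc. Again the groups stood well apart. The log2 fold change was 3.71 (SE 0.31, edgeR adjusted p = 7.41e-28), and the ratio of pooled levels was 13.3 (8.44 to 22.1).

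These transcripts were already responsive before EPO. In progenitors, ENSMUST00000060050.5 had 4.14, 4.93 and 3.4 CPM in HPC shStag2, against 1.15, 0.869 and 0.87 CPM in HPC Luc. Its log2 fold change there was 2.13 (SE 0.21, edgeR adjusted p = 8.43e-06). The ranges of the knockdown libraries of both stages overlapped, while both Ery Luc libraries were below every HPC Luc library. ENSMUST00000112836.7 also had lower values in Ery Luc than in HPC Luc, with 3.33, 3.05 and 3.36 CPM in HPC shStag2 and 0.661, 0.825 and 0.803 CPM in HPC Luc. Its log2 fold change in progenitors was 2.07 (SE 0.19, edgeR adjusted p = 2.85e-06).

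The pair that fell was nearly or wholly unread in progenitors. ENSMUST00000103558.2 had 4.67 and 4.72 CPM (123 and 147 reads) in Ery shStag2, against 45.7 and 49.1 CPM (1485 and 1342 reads) in Ery Luc. It fell 10.1-fold, a log2 fold change of -3.33 (SE 0.092, edgeR adjusted p = 2.41e-145). It had 0 reads in each of the 6 HPC shStag2 and HPC Luc libraries. The transcript was thus read after EPO in both groups, at a level that was lower in each Ery shStag2 library than in either Ery Luc library.

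ENSMUST00000028467.5 had 0 reads in both Ery shStag2 libraries, against 52 and 71 reads in Ery Luc (1.6 and 2.6 CPM). Taking 3 reads per library as the limit that a count of 0 allows, it was at least 18.4-fold lower in Ery shStag2 (edgeR adjusted p = 8.68e-21). In progenitors it had 1, 0 and 1 reads in HPC shStag2 and 2, 2 and 5 reads in HPC Luc, too few for a fold. Across the table, 2 identifiers had at least 10 reads in each Ery Luc library and 0 in both Ery shStag2 libraries, and 1 identifier had the opposite pattern, so complete absence was rare.

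**Figure D1:**
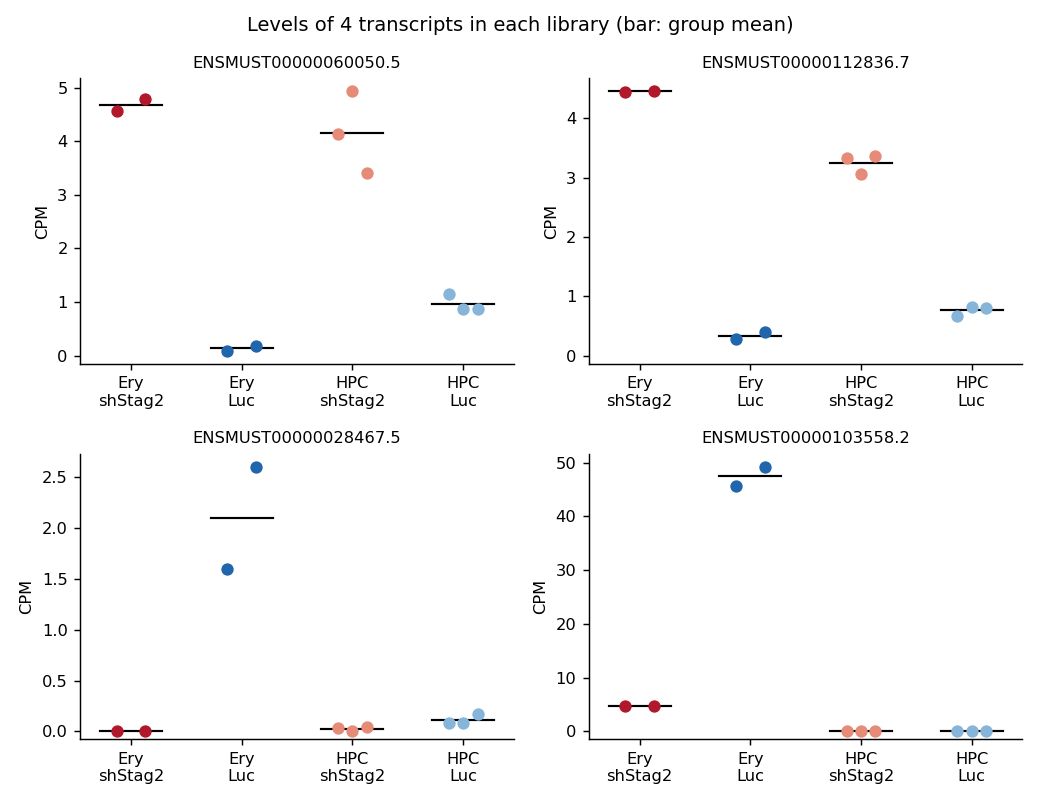
Level of the 4 named transcripts in every library of Ery shStag2, Ery Luc, HPC shStag2 and HPC Luc. Each point is 1 library in CPM on a linear axis, scaled within the 4 Ery libraries for Ery points and within all 15 libraries for HPC points, and each bar is the group mean. The upper 2 transcripts were high with the Stag2 hairpin at both stages, and the lower 2 had their highest values in Ery Luc.

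Beyond these transcripts, Stag2 knockdown after EPO changed many transcripts by small amounts and few by large ones. Of 15411 transcripts tested, 3701 (24%) passed the threshold of an adjusted p under 0.05, with 1908 (12.4%) higher and 1793 (11.6%) lower in Ery shStag2. The balance of directions depended on scaling, since upper-quartile scaling gave 1762 higher and 1943 lower. The median change of those that rose was 1.29-fold and of those that fell 1.24-fold, while the median log2 fold change over all transcripts tested was 0.00015. At least a 2-fold change was found for 569 transcripts (3.69%), of which 260 rose (1.69%) and 309 fell (2.01%). At least a 4-fold change was found for 58 that rose and 88 that fell. Of the 3701, 3680 had groups that did not overlap, as had 8720 of all 15411 tested. Passing the threshold makes this likely, so the count adds no support.

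The spread behind these calls was small. Over 6204 transcripts averaging at least 10 CPM, the SD of the log2 difference between a library of one group and a library of the other was 0.301 to 0.304. Between replicates it was 0.0952 in Ery shStag2 and 0.0997 in Ery Luc. A chi-square of the read counts, divided by its degrees of freedom, was 2.21 between the Ery shStag2 replicates, 2.53 between the Ery Luc replicates and 20.4 to 22.4 between libraries of different groups. Replicates thus differed beyond sampling noise, and none were merged. Because the estimate of spread is shared across transcripts, a small SE can go with replicates that lie far apart. ENSMUST00000198477.1, for example, had 278 and 182 CPM in Ery shStag2 and 80 and 142 CPM in Ery Luc. Its log2 fold change was 1.06 with an SE of 0.0465.

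The share that passed was higher in classes read at a higher level, and large changes were mostly in weakly read transcripts. Among those under 1 CPM, 251 of 3889 (6.45%) passed, 249 of them by at least 2-fold. At 1 to 10 CPM 775 of 5318 (14.6%) passed, and at 10 to 100 CPM 1854 of 4779 (38.8%). At 100 to 1000 CPM 773 of 1364 (56.7%) passed, 8 by at least 2-fold. Above 1000 CPM 48 of 61 (78.7%) passed, 36 higher and 12 lower, with a median change of 1.11-fold and none reaching 2-fold. The smallest change that passed was 0.97 on the log2 scale under 1 CPM and 0.044 above 1000 CPM.

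**Figure D2:**
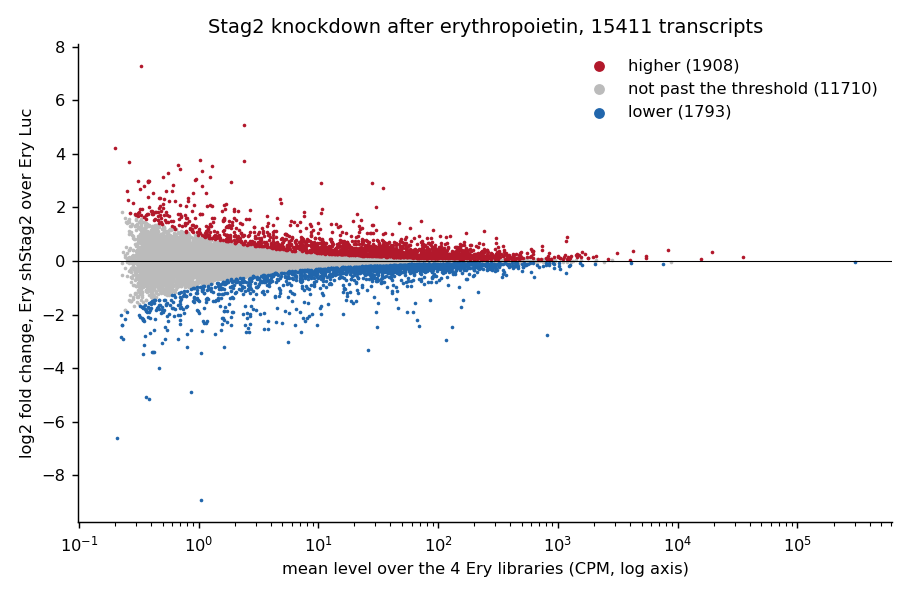
Log2 fold change of Ery shStag2 over Ery Luc against the mean level over the 4 libraries (CPM, log axis), 1 point per transcript. Of 15411 transcripts, 1908 were higher and 1793 lower, and changes of 2-fold or more were mostly at low levels.

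The number of transcripts past the threshold differed between methods. DESeq2's Wald test called 1989 transcripts, and a fit of all 15 RNA-seq libraries, in which the progenitor libraries raise the common biological coefficient of variation to 0.09 from 0.03, called 1388. In that fit 1371 of the calls were among the 3701 in the same direction, and with DESeq2 all 1989 were.

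Among transcripts read more after EPO than in progenitors, falls outnumbered rises in Ery shStag2 when both Ery groups were used for the sorting, but not when Ery shStag2 alone was used. Transcripts averaging at least 1 CPM over the 4 Ery libraries were sorted by the ratio of that level to their level over the 6 HPC shStag2 and HPC Luc libraries, both as means of log2 CPM. Each hairpin has equal weight in the Ery mean. The sorting uses the same 4 libraries as the fold changes and was chosen after seeing the data, so the counts are a description with no test. The stage cannot be told apart from a batch or from what "inhibitor" in the HPC titles stands for. The share of reads in no feature also differed by stage, at 9.19% to 9.5% in the 4 Ery libraries and 15.1% to 17.9% in the 6 HPC libraries, and its part in the sorting was not tested.

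Of 99 transcripts whose Ery level was 4-fold or more above their HPC level, 64 (64.6%) fell in Ery shStag2 and 9 (9.09%) rose. Among all 11522 transcripts at this level, 14.4% fell and 15.5% rose. The median log2 fold change of the 99 was -1.45, against -0.00078 over all 11522. At least a 2-fold fall was found for 55 and at least a 2-fold rise for 7.

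These counts depend on which group's level sorts the transcripts, since a group that is high in a transcript also lifts it into the class. Of the 99, 27 were under 4-fold above their HPC level in Ery shStag2, and 24 of those fell. Of the other 72, 40 fell (55.6%) and 9 rose (12.5%), with a median log2 fold change of -0.71. Members 4-fold above in both Ery groups numbered 65, of which 40 fell (61.5%) and 6 rose (9.23%), with a median of -1.22. Sorted by the Ery shStag2 libraries alone, the class held 96 transcripts, of which 31 fell (32.3%) and 37 rose (38.5%), with a median of 0.25. Sorted by the Ery Luc libraries alone, it held 144, of which 109 fell (75.7%) and 6 rose (4.17%), with a median of -1.58. The single-group sorts each lean towards the group used. All sorts reuse the libraries behind the fold changes, so the direction of this class is not settled by these libraries.

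Among transcripts nearer to their HPC level, falls and rises were closer in number. Of 296 transcripts 2- to 4-fold above their HPC level, 89 (30.1%) fell and 59 (19.9%) rose, with a median of -0.08. Of 10748 within 2-fold of it, 1482 (13.8%) fell and 1696 (15.8%) rose, with a median of 0.0021. Of 362 transcripts 2- to 4-fold below it, 20 (5.52%) fell and 26 (7.18%) rose. Only 17 lay 4-fold or more below, of which 4 fell and 1 rose.

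**Figure D3:**
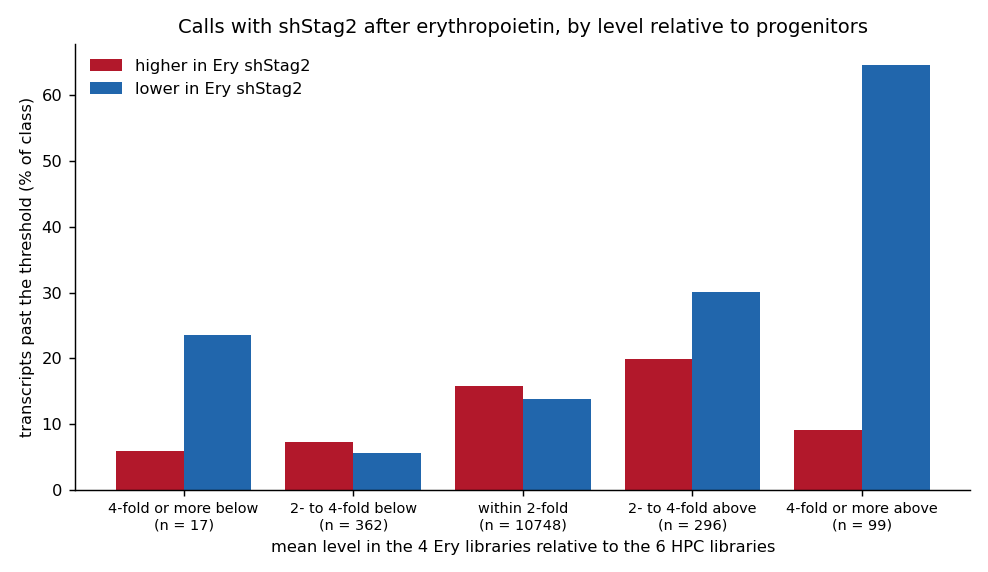
Share of transcripts that rose or fell in Ery shStag2 against Ery Luc (percent of each class, edgeR adjusted p under 0.05), by the mean level in the 4 Ery libraries relative to the 6 HPC libraries. In the class 4-fold or more above, 64.6% fell and 9.09% rose, against 13.8% and 15.8% in the class within 2-fold. Sorting by Ery shStag2 alone gave 32.3% and 38.5% in the top class.

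The median level of the 99 transcripts per library was 2.59 and 2.51 CPM in Ery shStag2, against 5.23 and 5.1 CPM in Ery Luc. It was 0.262, 0.243 and 0.257 CPM in the HPC shStag2 libraries, against 0.352, 0.347 and 0.436 CPM in HPC Luc. The low HPC values follow from the sorting and are no result. All 64 that fell had groups that did not overlap, as had 3680 of the 3701 transcripts past the threshold. Of the 99, 26 did not pass in either direction.

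In progenitors, 20 of the same 99 transcripts fell in HPC shStag2 and 1 rose (edgeR fit of 15 libraries), where 1.45% of all 18065 transcripts fell and 1.71% rose. The sorting used these HPC libraries too, and the share of all is not matched for level, so this count is no independent support. In the fit of all 15 libraries 56 of the 99 fell in Ery shStag2 and 4 rose, where 668 of all 18065 transcripts fell and 720 rose. With DESeq2 60 fell and 7 rose, where 931 of all 13083 fell and 1058 rose. The counts from the 15-library fit and DESeq2 use the same class and the same Ery libraries, so they are no further support.

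**Figure D4:**
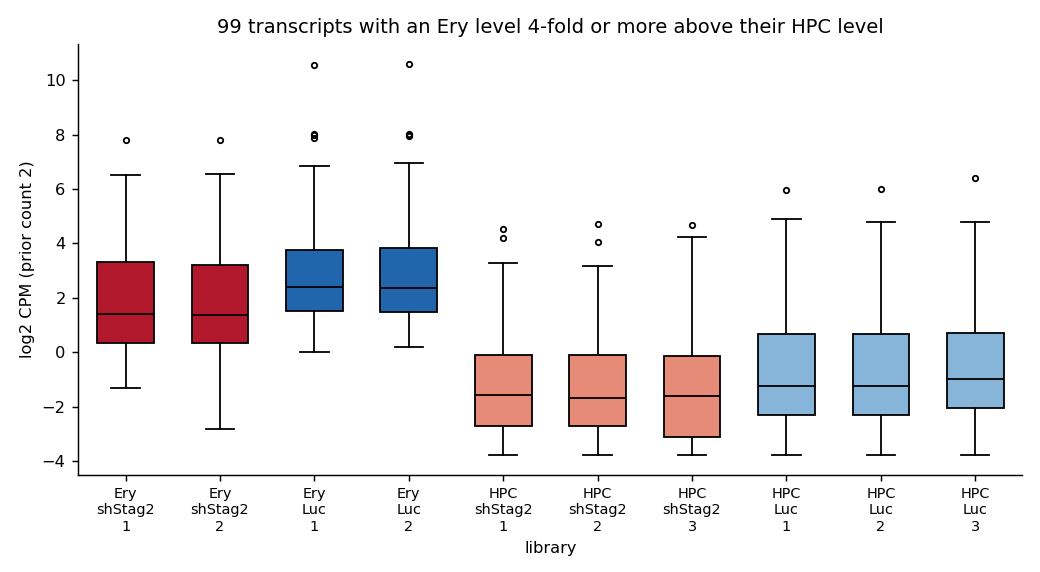
Level of the 99 transcripts with an Ery level 4-fold or more above their HPC level, as log2 CPM with a prior count of 2, in each library. Boxes span the quartiles with the median as a line, whiskers reach the last value within 1.5 box lengths, and open circles are single transcripts. Medians were lower in both Ery shStag2 libraries than in both Ery Luc libraries, and the low HPC levels follow from how the 99 were chosen.

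The next comparison asked how far the change after EPO was shared with the change in progenitors. The stages use different libraries with no shared control, and the labels do not say whether same-named cultures gave both. In progenitors 571 of 18065 transcripts (3.16%) passed, of which 561 were also tested after EPO. Of these, 409 (72.9%) changed the same way in Ery and 18 the opposite way.

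Of 304 that rose in progenitors, 240 (78.9%) rose after EPO and 4 fell, where 12.4% of all transcripts tested at both stages rose. Of 257 that fell in progenitors, 169 (65.8%) fell after EPO and 14 rose, where 11.6% of all fell. These shares of all are not matched for level. Under 1 CPM 3.01% of tested transcripts rose and 3.45% fell after EPO, and at 100 to 1000 CPM 29.4% rose and 27.3% fell. Seen from the other side, the 240 were 12.6% of the Ery transcripts that rose and the 169 were 9.44% of those that fell. Over all 18065 transcripts in the progenitor fit, 1.71% rose and 1.45% fell. That fit had a larger coefficient of variation (0.09 against 0.03), so small changes pass less readily there. By sign alone, 69.4% of the Ery transcripts that rose and 77.7% of those that fell moved the same way in progenitors. In the fit of 8 libraries described below, 26% and 20% passed the same way. The median log2 fold change after EPO was 0.55 for transcripts that rose in progenitors and -0.31 for those that fell there. In progenitors the medians were 0.57 and -0.56.

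**Figure D5:**
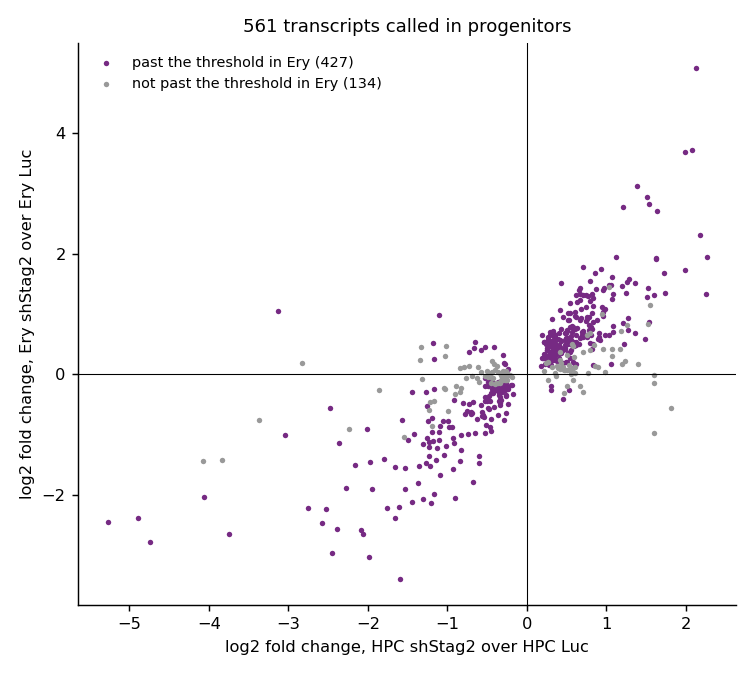
Log2 fold changes with the Stag2 hairpin after EPO (vertical) and in progenitors (horizontal) for the 561 transcripts past the threshold in progenitors and tested at both stages, 1 point each. Most points lie in the lower left and upper right parts of the plot, and 427 also passed the threshold after EPO.

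The size of the progenitor list depended on the libraries fitted. Leaving out the HPC Luc and HPC shStag2 libraries numbered 3 gave 496 transcripts, of which 485 were tested after EPO, 344 changed the same way (70.9%) and 26 the opposite way. Leaving out the HPC shRad21 and HPC shSmc1a libraries as well, which left 8 libraries, gave 1558 transcripts, of which 1534 were tested. Of those, 853 changed the same way (55.6%) and 124 the opposite way.

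Across all 15386 transcripts tested at both stages, the log2 fold changes had a Pearson correlation of 0.38, and of 0.56 over the 6204 averaging at least 10 CPM. These correlations are across transcripts, which are not independent replicates and share the library scaling.

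Transcripts that changed with the other cohesin hairpins in progenitors were looked up after EPO as well. Rad21 and Smc1a encode core subunits of the cohesin ring. These progenitor comparisons (3 HPC shRad21 and 2 HPC shSmc1a libraries) share their HPC Luc libraries with each other and with HPC shStag2, so only their values are set side by side. With HPC shRad21, 1419 transcripts passed (7.85%), 706 higher (3.91%) and 713 lower (3.95%). With HPC shSmc1a, 782 passed (4.33%), 425 higher (2.35%) and 357 lower (1.98%).

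Of 685 transcripts that rose with HPC shRad21 and were tested after EPO, 395 (57.7%) rose in Ery shStag2 and 24 fell. Of 698 that fell with HPC shRad21, 303 (43.4%) fell in Ery shStag2 and 84 rose. With HPC shSmc1a, 207 of 415 that rose (49.9%) also rose in Ery shStag2 and 47 fell. Of 353 that fell with HPC shSmc1a, 159 (45%) also fell in Ery shStag2 and 74 (21%) rose. Of all transcripts tested at both stages, 12.4% rose and 11.6% fell in Ery shStag2. Opposite changes thus exceeded that share for transcripts that fell with HPC shSmc1a. They were near it for those that rose with HPC shSmc1a (11.3%) or fell with HPC shRad21 (12%), and below it for those that rose with HPC shRad21 (3.5%). The shares of all are not matched for level, and at 10 to 100 CPM 20% of tested transcripts rose and 18.8% fell. Whether these lists differ from transcripts of like level was not tested. Transcripts that moved the same way in all 3 progenitor knockdowns mostly did so in Ery shStag2. They are part of those that changed with HPC shStag2, the same hairpin. For the full HPC shStag2 lists the shares were 78.9% of those that rose and 65.8% of those that fell. Of 125 that rose, 109 (87.2%) rose after EPO and 2 fell, with a median log2 fold change of 0.61. Of 106 that fell, 67 (63.2%) fell after EPO and 6 rose, with a median of -0.4.

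The effect of the hairpin differed between the stages for 215 of 18065 transcripts (1.19%) in a direct test of the difference (edgeR interaction contrast, 15 libraries, adjusted p under 0.05), and 2088 had an unadjusted p under 0.05. Of the 215, 207 were among the transcripts that changed after EPO. The effect was more positive after EPO for 119 (0.659%), of which 114 had a positive fold change there, and more negative for 96 (0.531%), of which 94 had a negative one. The fitted effects had opposite signs for 125, had the same sign and were larger after EPO for 83, and were larger in progenitors for 7. Of the 125, only 6 passed the threshold at both stages in the 15-library fit. With the Ery effect taken from the fit of the 4 Ery libraries, 18 transcripts passed at both stages in opposite directions. Of these 18, 13 passed the test of the difference. Without the HPC Luc and HPC shStag2 libraries numbered 3, 312 transcripts passed that test, and with the 10 libraries of the 4 groups 289. With both choices together (8 libraries) 1423 passed, and with no filter on low counts 544. A replicate block on the HPC numbers gave 824. In this test EPO cannot be told apart from the dose of stem cell factor, time since hairpin induction or a batch.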

How the data were processed

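The values deposited by the authors are raw read counts for each Ensembl transcript identifier, with a table for every library. The submitters' processing notes name STAR 2.4.0, HTSeq and the mm10 build. They name no annotation release, counting mode or strand setting (not given in the sources used here), and reads of overlapping transcripts therefore cannot be separated. Every table ends in 5 summary lines without a transcript, which did not enter any fit. Reads in no feature made up 9.19% to 9.5% of the counted total in the 4 Ery libraries.

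The 4 Ery libraries were fitted alone, with filterByExpr, TMM scaling and edgeR's quasi-likelihood test (edgeR 4.0.16 in R 4.3.3). P-values were adjusted by the Benjamini-Hochberg method over every tested transcript, with a threshold of 0.05. The SE of a log2 fold change is its size over the square root of F. Progenitor contrasts and the test of the difference came from 1 fit of all 15 libraries. Levels are CPM on the TMM scale, compared only within a transcript, since lengths were not used. Alternatives were DESeq2 1.42.0, other scalings, no filter, a replicate block and leaving out each library. The procedure was tested on data simulated with its own fitted spread, which cannot show whether that spread suits these libraries. Members, lists and the naming rule were chosen with earlier results of these data known, and the sorting by stage and a block on the HPC numbers were chosen after seeing these data. Promoter contact lists were not used here.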

Additional observations from a re-analysis of the deposited data

Results flagged for a closer look

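The effect of the Stag2 hairpin on both named transcripts that rose was larger after EPO than in progenitors, by a test of the difference itself. Both were named for the largest rises in the Ery libraries, which this test reuses. That choice favours a difference towards Ery, so its size may be overstated and the p-values are no independent support. Nor can EPO be told apart from the dose of stem cell factor, time since hairpin induction or a batch. For ENSMUST00000060050.5 the log2 effect was larger by 2.93 (SE 0.47, edgeR interaction contrast, adjusted p = 0.0026), and at both stages every shStag2 library was above every Luc library. For ENSMUST00000112836.7 it was larger by 1.62 (SE 0.34, edgeR adjusted p = 0.022). Without the HPC Luc and HPC shStag2 libraries numbered 3 the second value was 1.6 with an adjusted p of 0.0502, and over all alternatives run its adjusted p was 0.0108 to 0.0502. The 2 Ery Luc libraries held 3 and 5 reads of the first transcript and 9 and 11 of the second.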

How the results depend on the processing

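DESeq2 called 1989 transcripts, 1058 higher, 931 lower and 303 by at least 2-fold, and the fit of all 15 libraries called 1388, 720 higher and 668 lower. The cause was not tested. In that fit 4 of the 99 transcripts well above their progenitor level rose, against 9. Of the members 4-fold above it in Ery shStag2 too, 40 fell. Sorting by Ery shStag2 alone gave 31 that fell and 37 that rose, and by Ery Luc alone 109 that fell. RLE and upper-quartile scaling, no filter, and dropping the most counted identifier kept the number changed between 3388 and 3705, and leaving out each library in turn gave 2762 to 3021. The test of the difference between stages called 544 transcripts with no filter and 1423 with 8 libraries (no number 3, shRad21 or shSmc1a libraries), where 853 progenitor transcripts changed the same way after EPO. These sorts, the 8 libraries and the HPC block were added after seeing the data. All 4 named transcripts kept their direction and stayed past the threshold after EPO under the 11 alternatives. The replicate block gave 3598 calls after EPO, where deviations of same-numbered libraries had a correlation of 0.0035. In progenitors that correlation between HPC shStag2 and HPC Luc was 0.023, 0.106 and 0.184 for numbers 1, 2 and 3. HPC shStag2 1 correlated best with HPC Luc 2 (0.078). HPC shStag2 2 had 0.025 and -0.129 with HPC Luc 1 and 3, and HPC shStag2 3 had -0.039 and -0.149 with HPC Luc 1 and 2. Numbers 2 and 3 thus correlated best with their own number. Whether the HPC numbers are pairs is not settled, and the main fit did not use them. A replicate block on the HPC numbers gave 824 transcripts that differed between stages and 770 of 1283 progenitor transcripts changed the same way, with 76 opposite. Counts of gene lists and contacts of named genes were not run, as identifiers could not be paired with genes. Under 1 CPM the smallest change called was 0.97 on the log2 scale, and no other depth was run.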
